A study of Homo sapiens with 15 samples.

Results

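A set of 10 genes of lipid handling that are commonly used as readouts of the nuclear receptors LXR and PPAR were followed through 15 RNA sequencing libraries of MelJuSo, a human melanoma cell line. The genes were taken by name (ABCA1, ABCG1, MYLIP, PLTP, ANGPTL4, PLIN2, CPT1A, PDK4, APOE and LPL), by no threshold on their values but with earlier results of these data known, and make up 10 of the 58721 annotated genes in each library. The libraries come from 5 derived lines with 3 libraries each, lettered A, B and C. In 4 of the lines a 5xALFA-tagged, nuclease-dead Cas12a carries the activation domain VP64, and a nanobody against the tag carries a further domain. That domain is VP64 in the VP64 line without guides and the VP64 line with guides, and p65, a part of RELA, in the p65 line without guides and the p65 line with guides. The guides are an array aimed at CD4, a gene of T cells and of some myeloid cells. The remaining line holds tagged dCas12a with no VP64, a nanobody with no domain, and no guides, and is called here the line without an activation domain. Against that line, the VP64 on dCas12a and the domain on the nanobody are changed together. Tagged dCas12a and a nanobody are thus shared by all 5 lines, and VP64 on dCas12a by both lines that are compared in each guide comparison. The labels describe cells grown to confluency, but do not say whether a line is a clone or a pool, or whether its libraries are separate cultures. The p-values therefore measure the spread between these libraries, which may be technical, and a difference between 2 lines cannot be told apart from a difference between the cells from which they were made.

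LXR and PPAR are nuclear receptors that pair with RXR and bind DNA at repeats of a short recognition sequence. LXR is switched on by oxidised forms of cholesterol and is known for driving cholesterol out of cells, through the transporters ABCA1 and ABCG1, and for lowering lipoprotein uptake through the ubiquitin ligase MYLIP. PPAR receptors are switched on by fatty acids and are known for raising genes of fatty acid burning and storage, among them ANGPTL4, CPT1A, PDK4 and PLIN2. APOE, PLTP and LPL act on lipoprotein particles outside the cell and have been linked to both receptors.

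Sequence before the RefSeq transcript start is shown for 3 of the 6 genes that changed in both guide comparisons. ABCA1 is shown as the 1 gene with a match to a repeat searched for, and MYLIP and ANGPTL4 as a gene that rose and a gene that fell. Sequences are from RefSeq on GRCh38.p14, where 8 of the 10 genes had an entry, and positions are counted from the transcript start. All windows of 250 bases before to 50 bases after a start were searched on both strands for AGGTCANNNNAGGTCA, called DR4 and known as the LXR type of repeat, and for AGGTCANAGGTCA, called DR1 and known as the PPAR type, with up to 2 mismatches among the 12 fixed bases. The ABCA1 stretch lies at chr9:104928202-104928231 on the minus strand, positions -76 to -47, and its capitals mark a DR4 match on the opposite strand. It falls within the leading exon of a longer ABCA1 transcript in GENCODE. The MYLIP stretch is chr6:16128836-16129085 on the plus strand. The ANGPTL4 stretch is chr19:8363905-8364150 on the plus strand, inside the GENCODE gene, which has a transcript that starts further upstream. The MYLIP and ANGPTL4 stretches are free of annotated exons and in lower case, since neither window holds a match to either repeat.
ABCA1: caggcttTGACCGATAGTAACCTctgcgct
MYLIP: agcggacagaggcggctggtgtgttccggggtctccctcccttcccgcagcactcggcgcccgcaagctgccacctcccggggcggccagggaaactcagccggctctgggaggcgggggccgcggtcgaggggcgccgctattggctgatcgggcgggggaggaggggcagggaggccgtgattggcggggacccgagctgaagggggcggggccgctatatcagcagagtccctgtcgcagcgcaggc
ANGPTL4: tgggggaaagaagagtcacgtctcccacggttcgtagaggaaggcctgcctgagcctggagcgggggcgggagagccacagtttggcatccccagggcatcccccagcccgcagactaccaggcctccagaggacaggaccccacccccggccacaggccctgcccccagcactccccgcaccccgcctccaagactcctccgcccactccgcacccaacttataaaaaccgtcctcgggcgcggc
The ABCA1 match, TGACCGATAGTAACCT, spans positions -69 to -54 and has 2 mismatches. A DR4 match of this quality was present in 822 of 35116 promoter windows, 2.34%, and a DR1 match in 1043, 2.97%. No other entry of these genes held either repeat, which says only that these letters are not in that window.

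Library totals ran from 15643705 to 23072512 expected counts. CD4 was at 1.57 ± 0.906 TPM (SD, n = 3 in each line) without an activation domain, 4.24 ± 0.397 in the VP64 line and 5.31 ± 0.382 in the p65 line without guides, and at 924 ± 27.0 and 1002 ± 56.1 TPM in the VP64 and p65 lines with guides, as the labels state the guides. TPM is RSEM's transcript abundance, scaled by gene length and by the library. Of melanocyte and melanoma markers, SOX10 was at 122 to 237 TPM, S100B at 34.9 to 195, and PMEL at 7.08 to 15.1, but MLANA was at 0 to 0.53 TPM. The 8 markers of that list summed to 187 to 230 TPM in the 3 lines without guides, 392 to 462 in the VP64 line with guides and 277 to 365 in the p65 line with guides. The 6 macrophage markers, which are of interest because macrophages are known for high ABCA1, ABCG1 and APOE, summed to 60.9 to 86.4 TPM in the lines without guides and 99.2 to 116 TPM in the lines with guides. CD68, which is not limited to macrophages, made up 42 to 101 TPM of those sums. CSF1R was at 2.99 to 14.6 TPM, ADGRE1 at 2.45 to 6.76 and CD163 at 1.04 to 4.32, all above 1 TPM in every library. CD14 was at 0.49 to 4.23 TPM and PTPRC at 0.23 to 1.59. Within the lines without guides, the macrophage sum was 60.9 to 71.1 TPM with no activation domain, 80.5 to 86.4 in the VP64 line and 65.5 to 75.4 in the p65 line. The 5 adipocyte markers summed to 2.26 to 2.43 TPM without an activation domain and 0.57 to 1.71 TPM in the other 4 lines, the split seen for APOE and LPL below. Nearly all of that sum was FABP4, at 0.57 to 2.26 TPM, which fell against no activation domain in the p65 line without guides (log2 change -1.14, SE 0.34, adjusted p = 0.00823) and was not called in the VP64 line (-0.46, SE 0.32, adjusted p = 0.261). ADIPOQ and LEP were at 0 in all 15 libraries. Of the 5 hepatocyte markers, APOB was at 0 and SERPINA1 reached 2.74 TPM. Of the 5 T cell markers, CD3D, CD3G and CD2 were at 0 and TRAC was at 0.51 to 2.71 TPM. The melanocyte, macrophage and adipocyte sums thus moved in some of the comparisons below, and their part in the results was not tested. In bulk RNA, fewer cells expressing a gene and less RNA per cell cannot be told apart.

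Of the 10 genes, 9 had enough counts to be tested. PDK4, a kinase that holds back glucose oxidation, had 0 to 4 counts per library, at most 0.1 TPM, and was left out of every test. With guides, ABCA1, ABCG1, MYLIP and PLTP rose and ANGPTL4 and CPT1A fell, in both the VP64 and the p65 line against the matching line without guides. That is 4 of 9 genes up and 2 down in each arm, at an adjusted p under 0.05 by edgeR's quasi-likelihood test with Benjamini-Hochberg adjustment over 14961 genes. Over all tested genes, 19.3% rose and 21.3% fell with guides in the VP64 arm, and 18.7% rose and 20.2% fell in the p65 arm. Against the line without an activation domain, both lines without guides had ANGPTL4, CPT1A and PLTP higher and APOE and LPL lower, 3 of 9 genes up and 2 down. There, 23.6% of all genes rose and 24.0% fell in the VP64 line, and 24.7% rose and 24.9% fell in the p65 line. Changes were thus common across the genome in all 4 comparisons. Few were large: a rise of at least 2-fold with guides was seen in 2.36% (VP64) and 2.2% (p65) of genes, and ABCG1 was the 1 listed gene that reached it. A fall of at least 2-fold with guides was seen in 0.709% and 0.414% of genes, and ANGPTL4 was the 1 listed gene.

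**Figure D1:**
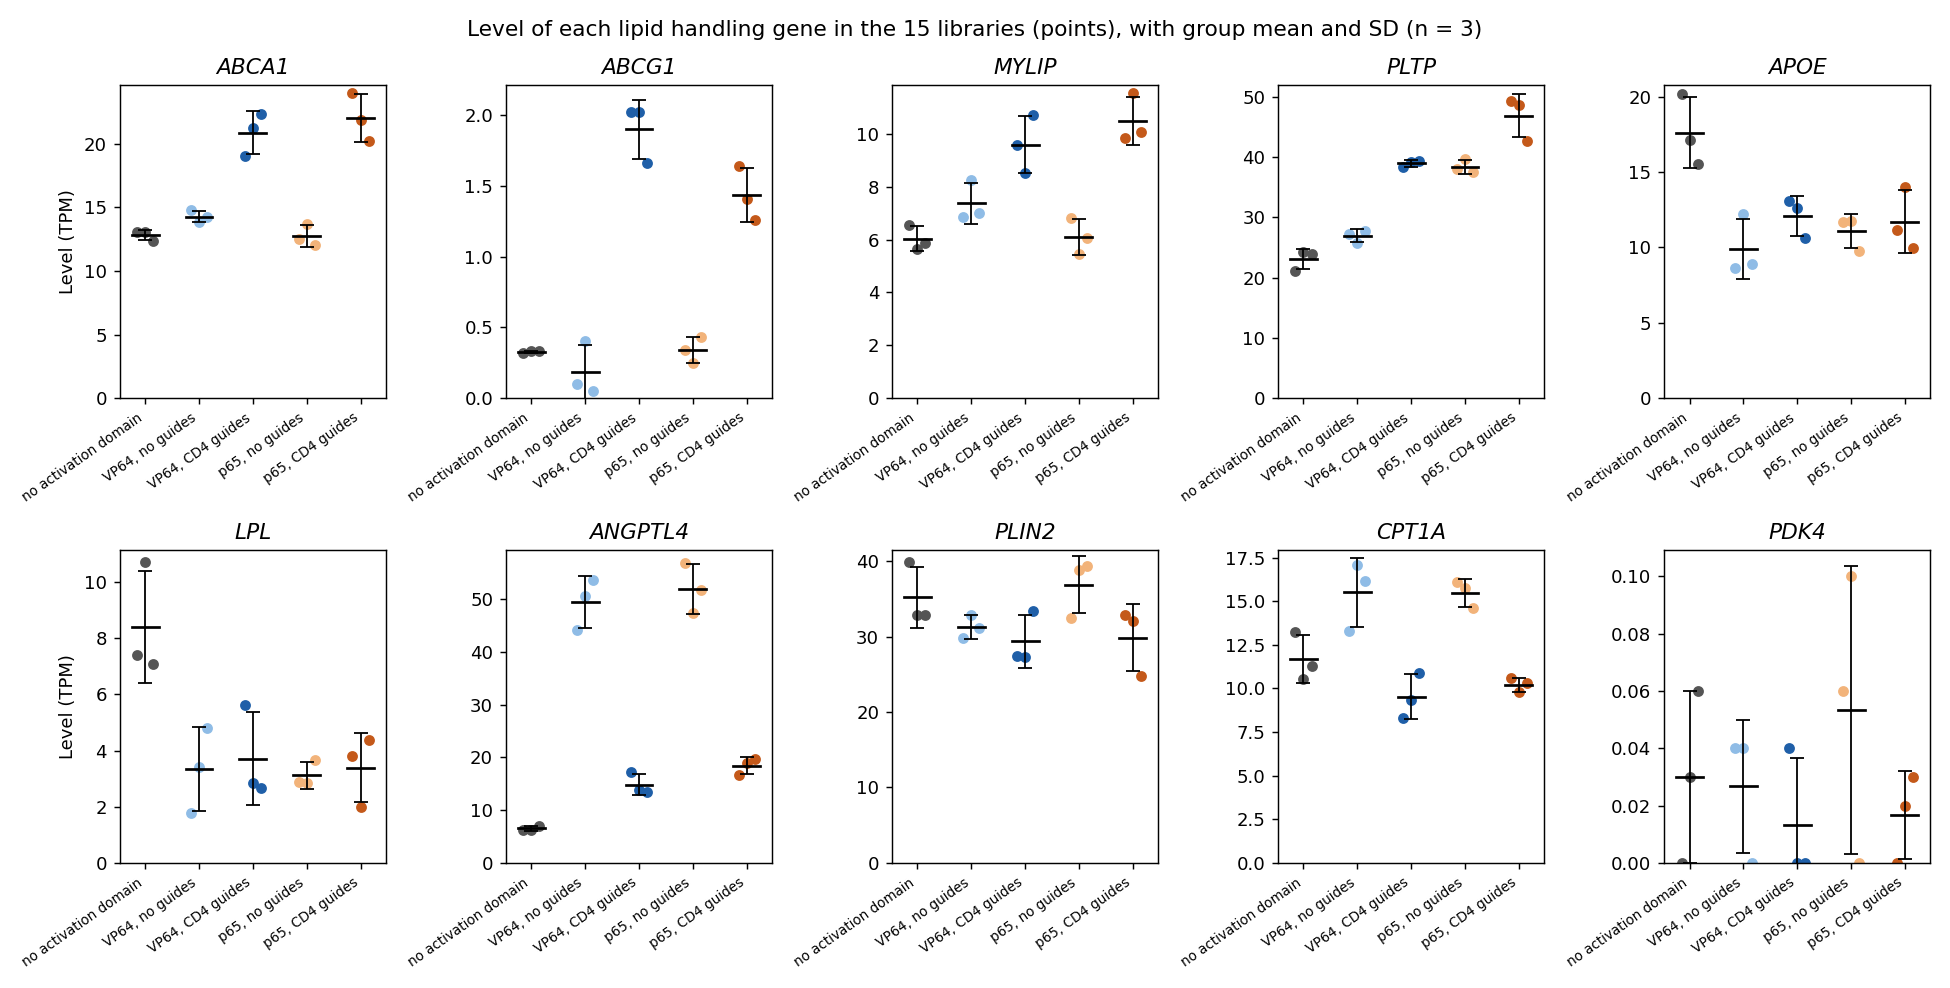
Transcript abundance (TPM, linear axis from 0) of the 10 genes in the 5 lines. Points are the 15 libraries, bars the mean and error bars the SD of 3 libraries per line. ABCA1, ABCG1 and MYLIP are highest in both lines with guides, ANGPTL4 is highest in both activation lines without guides, and PDK4 does not exceed 0.1 TPM.

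The cholesterol exporters had the largest log2 rises with guides among the listed genes in both arms. The lead of ABCA1 was small, at 0.52 against 0.51 for PLTP with VP64 and 0.79 against 0.70 for MYLIP with p65. ABCA1 (chr9:104781002-104928237), which loads cholesterol and phospholipid onto lipid-poor apolipoproteins, was at 13.0, 13.1 and 12.4 TPM in libraries A, B and C without an activation domain. It was at 14.8, 13.9 and 14.2 TPM in the VP64 line without guides and at 19.01, 21.3 and 22.3 with guides. In the p65 line it was at 12.6, 13.7 and 12.03 TPM without guides and at 24.0, 21.9 and 20.3 with guides. All 6 libraries with guides lay above all 9 without. The change with guides was 0.52 on the log2 scale (SE 0.06, adjusted p = 3.58e-07), or 1.44-fold, in the VP64 arm and 0.79 (SE 0.06, adjusted p = 8.83e-10), or 1.73-fold, in the p65 arm. The 2 lines without guides were not called different from the line without an activation domain, with a log2 difference of 0.14 (SE 0.06, adjusted p = 0.0601) for VP64. That VP64 value passed the threshold with DESeq2 (0.15, adjusted p = 0.0361), with DESeq2 size factors in edgeR (0.15, adjusted p = 0.0454), with only the libraries compared (0.15, adjusted p = 0.0078), with no low-count filter (0.16, adjusted p = 0.00606) and without library A of the line without an activation domain (0.20, adjusted p = 0.0191).

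ABCG1 (chr21:42199689-42297244), which passes cholesterol on to mature HDL particles, was the least abundant of the tested genes and the one that changed most in proportion. It was at 0.32, 0.33 and 0.33 TPM without an activation domain. In the VP64 line it was at 0.10, 0.40 and 0.05 TPM without guides, from only 4, 16 and 2 counts, and at 2.02, 2.02 and 1.66 TPM with guides, from 63, 71 and 50 counts. In the p65 line it was at 0.34, 0.25 and 0.43 TPM without guides and at 1.64, 1.41 and 1.26 with guides, from 14, 10 and 21 and from 64, 52 and 55 counts. The 6 libraries with guides did not overlap with the others. The log2 change was 3.23 (SE 0.38, adjusted p = 4.99e-07) in the VP64 arm and 2.08 (SE 0.34, adjusted p = 3.83e-05) in the p65 arm. Library B of the VP64 line without guides stood above its partners and moved these values. Without it the VP64 change was 4.49, and the difference from the line without an activation domain went from -0.89 (SE 0.46, adjusted p = 0.116) to -2.12 (adjusted p = 0.00126).

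MYLIP (chr6:16129125-16148248), a ubiquitin ligase that limits lipoprotein uptake, was at 6.56, 5.65 and 5.88 TPM without an activation domain. It was at 6.86, 8.27 and 7.01 TPM in the VP64 line without guides and at 9.57, 8.52 and 10.7 with guides. In the p65 line the values were 6.82, 5.44 and 6.05 TPM without guides and 9.86, 11.6 and 10.1 with guides. The lines with guides were above the matching lines without them in every library, and the gap was narrow in the VP64 arm. The log2 change with guides was 0.41 (SE 0.11, adjusted p = 0.00494), or 1.33-fold, with VP64 and 0.70 (SE 0.11, adjusted p = 2.27e-05), or 1.63-fold, with p65.

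**Figure D2:**
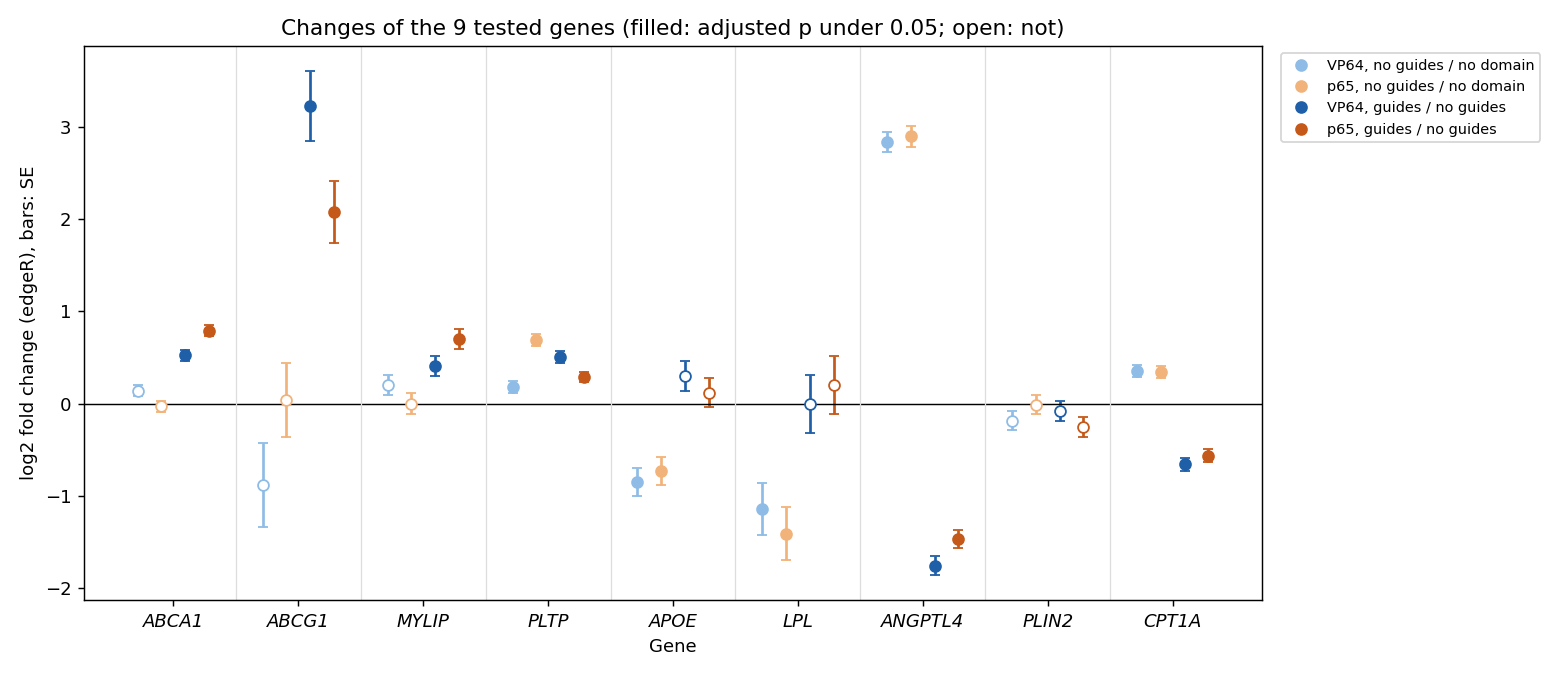
The edgeR log2 fold change (vertical axis, bars are the SE) of the 9 tested genes in 4 comparisons, the activation lines without guides against no activation domain and guides against no guides in each arm. Filled points passed an adjusted p of 0.05. ABCG1 has the widest error bars, and ANGPTL4 is the 1 gene with changes of at least 1 in all 4 comparisons, upward in one pair and downward in the other.

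The genes that act on lipoprotein particles followed different courses. PLTP (chr20:45898621-45912155), which moves phospholipid between lipoproteins, was at 21.2, 24.2 and 23.9 TPM without an activation domain. It was at 27.3, 25.8 and 27.8 TPM in the VP64 line without guides and at 38.4, 39.3 and 39.3 with guides. In the p65 line it was already at 38.1, 39.8 and 37.5 TPM without guides, and at 49.3, 48.7 and 42.8 with guides. The p65 line without guides thus lay at the level of the VP64 line with guides. PLTP rose with guides by 0.51 (SE 0.06, adjusted p = 9.51e-07) in the VP64 arm and by 0.29 (SE 0.06, adjusted p = 0.000399) in the p65 arm on the log2 scale. Against no activation domain it was higher by 0.69 (SE 0.06, adjusted p = 5.81e-09) in the p65 line without guides and by 0.18 (SE 0.06, adjusted p = 0.0233) in the VP64 line without guides. That last call was lost without library A or C of the VP64 line (0.17 and 0.18, adjusted p = 0.062 and 0.0546) or library A without an activation domain (0.14, adjusted p = 0.104). PLTP shares part of its locus with CTSA on the opposite strand, and the sources used here do not give the strandedness, so their reads cannot be told apart where they overlap. CTSA, a lysosomal protease, rose with guides by 0.63 and 0.60 on the log2 scale in the VP64 and p65 arms (adjusted p = 1.26e-09 and 2.69e-09), but was not called between p65 and VP64 without guides, at -0.06 (SE 0.05, adjusted p = 0.637).

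PLTP was also the 1 listed gene that differed between the nanobody domains. It was higher with p65 than with VP64 by 0.51 (SE 0.06, adjusted p = 2.08e-05) without guides and by 0.29 (SE 0.06, adjusted p = 0.00293) with guides, with no overlap between libraries. Among all genes, 0.388% were higher with p65 without guides and 3.72% with guides, and 2.11% and 7.92% differed in either direction.

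APOE (chr19:44905754-44909393), the apolipoprotein through which particles are taken up, was at 20.2, 17.1 and 15.6 TPM without an activation domain. It was at 8.64, 12.2 and 8.87 TPM in the VP64 line without guides and at 11.7, 11.8 and 9.78 in the p65 line without guides. With guides it was at 13.1, 12.6 and 10.6 TPM (VP64) and 11.2, 14.04 and 9.93 TPM (p65). The line without an activation domain stood above all 12 other libraries, which overlapped among themselves. APOE fell in both, with log2 changes of -0.85 (SE 0.15, adjusted p = 8.09e-05) in the VP64 line without guides and -0.73 (SE 0.15, adjusted p = 0.000309) in the p65 line without guides. The log2 difference with guides was 0.30 (SE 0.16, adjusted p = 0.144) in the VP64 arm and 0.12 (SE 0.16, adjusted p = 0.597) in the p65 arm, neither called. Without library B of the VP64 line without guides, the former was 0.51 and called (adjusted p = 0.0217).

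LPL, the lipase that frees fatty acids from triglyceride-rich particles, was likewise highest without an activation domain, with more scatter between libraries. It was at 7.42, 10.7 and 7.07 TPM without an activation domain. It was at 1.79, 3.43 and 4.81 TPM in the VP64 line and at 2.87, 2.83 and 3.68 in the p65 line without guides. With guides the values were 5.61, 2.85 and 2.67 TPM (VP64) and 3.80, 2.00 and 4.38 TPM (p65). Again the line without an activation domain lay above all other libraries. LPL fell, with log2 changes of -1.15 (SE 0.28, adjusted p = 0.00199) with VP64 and -1.42 (SE 0.29, adjusted p = 0.0003) with p65, without guides in both cases. With guides the differences were -0.01 (SE 0.31, adjusted p = 0.989) and 0.20 (SE 0.31, adjusted p = 0.661), neither called, with errors wide enough to hide a sizeable change.

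ANGPTL4 (chr19:8363289-8374373), a secreted inhibitor of LPL, had the largest changes of the tested genes in the lines without guides. It was at 6.29, 6.18 and 7.08 TPM without an activation domain. It reached 44.2, 50.7 and 53.7 TPM in the VP64 line and 56.9, 47.4 and 51.7 TPM in the p65 line without guides. With guides it was at 17.2, 13.8 and 13.5 TPM (VP64) and 16.7, 18.9 and 19.7 TPM (p65). The lines fell into 3 separate levels, lowest without an activation domain, intermediate with guides and highest without guides. Against no activation domain the log2 rise was 2.84 (SE 0.11, adjusted p = 2.09e-14), or 7.18-fold, in the VP64 line and 2.90 (SE 0.11, adjusted p = 8.41e-15), or 7.49-fold, in the p65 line, both without guides. With guides the log2 change was -1.76 (SE 0.10, adjusted p = 1.95e-11), a fall to 0.296 of the level, in the VP64 arm and -1.47 (SE 0.10, adjusted p = 1.22e-10), a fall to 0.361, in the p65 arm. The lines with guides remained 2.13-fold (VP64) and 2.70-fold (p65) above the line without an activation domain in library-scaled counts (CPM), with no overlap between libraries. That comparison was not tested. Both pairs of comparisons share the lines without guides, so the rise and the fall are not independent. The antisense gene RAB11B-AS1 overlaps ANGPTL4, was at 2.07 to 4.8 TPM and was called in none of the 6 comparisons of lines.

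**Figure D3:**
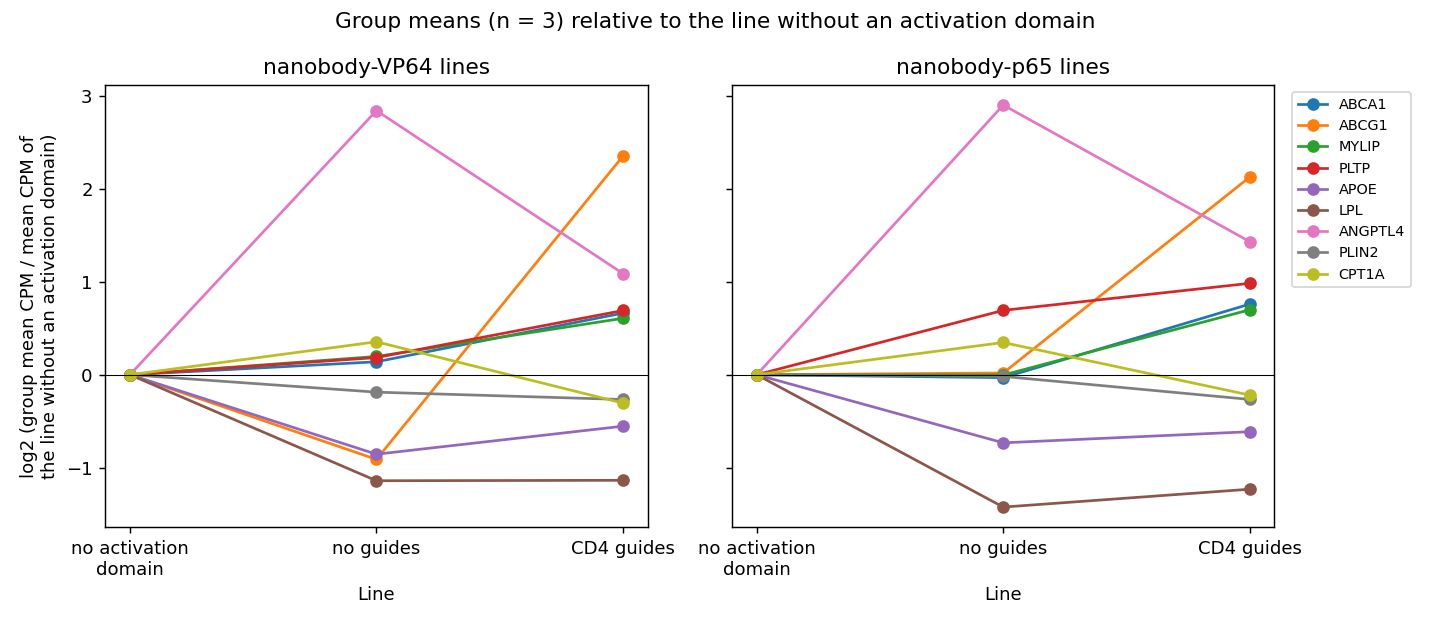
Group means of each gene relative to the line without an activation domain (log2 ratio of CPM), joined from no activation domain to no guides to guides in the VP64 arm and the p65 arm. ANGPTL4 rises and then falls partway back, ABCG1 rises at the last step, and APOE and LPL fall at the earlier step and show little further movement.

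Of the 2 tested PPAR readouts that act inside the cell, CPT1A changed in 4 comparisons and PLIN2 in none. CPT1A (chr11:68754620-68844410), which admits fatty acids to mitochondria for burning, was at 13.3, 10.6 and 11.3 TPM without an activation domain. It was at 13.3, 17.1 and 16.2 TPM in the VP64 line without guides and at 8.32, 9.34 and 10.9 with guides. In the p65 line it was at 16.1, 15.7 and 14.6 TPM without guides and at 10.6, 9.79 and 10.3 with guides. Within each arm the libraries with guides lay below those without. CPT1A rose against no activation domain by 0.36 (SE 0.07, adjusted p = 0.00013) with VP64 and 0.35 (SE 0.07, adjusted p = 0.000153) with p65 on the log2 scale. With guides it fell, with log2 changes of -0.66 (SE 0.07, adjusted p = 1.04e-07) in the VP64 arm and -0.57 (SE 0.07, adjusted p = 7.58e-07) in the p65 arm.

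PLIN2 (chr9:19108375-19149290), which coats lipid droplets, stayed within a narrow range of line means, 29.4 to 36.9 TPM. It was at 39.9, 32.9 and 32.8 TPM without an activation domain and at 29.8, 32.9 and 31.1 in the VP64 line without guides. The p65 line without guides was at 32.5, 38.9 and 39.4 TPM. With guides the values were 27.4, 27.3 and 33.5 TPM (VP64) and 32.9, 32.0 and 24.7 TPM (p65). The ranges overlapped in both arms. The log2 differences with guides were -0.08 (SE 0.11, adjusted p = 0.569) and -0.25 (SE 0.10, adjusted p = 0.0567), neither called. The p65 value was called in fits without library A (-0.33, adjusted p = 0.0352) or B (-0.31, adjusted p = 0.0443) of the p65 line with guides, or library A of the p65 line without guides (-0.35, adjusted p = 0.0109).

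The guide effects of the arms were also compared with each other. None of the 9 genes passed the edgeR test of that difference, against 0.956% of all genes. At an unadjusted p under 0.05 in edgeR there were 3, ABCA1, ABCG1 and PLTP. The share of all genes under that looser threshold was not taken, so this count cannot be read as an excess. DESeq2 called 0 of the 9 after adjustment. The difference, p65 minus VP64, was 0.27 (SE 0.08, adjusted p = 0.162) for ABCA1 and 0.29 (SE 0.14, adjusted p = 0.459) for ANGPTL4 on the log2 scale. For ABCG1 it was -1.15 (SE 0.54, adjusted p = 0.422), which became -2.39 (adjusted p = 0.0407) without library B of the VP64 line without guides. With guides, ANGPTL4 was 0.35 higher with p65 than with VP64 (SE 0.11, adjusted p = 0.0629), which was not called by edgeR and was called by DESeq2 at 0.35 (adjusted p = 0.0216). Without library A of the VP64 line with guides it was 0.51 (adjusted p = 0.00547), and without library A of the p65 line with guides 0.42 (adjusted p = 0.0405).

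The receptors themselves were expressed. NR1H2, which encodes LXR beta, was at 63.7 to 87.9 TPM, PPARD at 26.4 to 37.5 and NR1H3, which encodes LXR alpha, at 4.85 to 12.3. The other PPAR genes were lower, with PPARA at 1.89 to 6.5 TPM and PPARG at 1.46 to 3.23. NR1H3 rose with guides by 0.91 (SE 0.15, adjusted p = 5.36e-05) in the VP64 arm and 0.76 (SE 0.15, adjusted p = 0.000396) in the p65 arm on the log2 scale. It was lower in both lines without guides than without an activation domain, with log2 changes of -0.70 (adjusted p = 0.000638) and -0.69 (adjusted p = 0.000699), but those calls were lost on log2(TPM + 0.1) in limma (adjusted p = 0.208 and 0.0524). PPARD fell with guides, with log2 changes of -0.40 (SE 0.06, adjusted p = 1.67e-05) and -0.20 (SE 0.06, adjusted p = 0.0109), the latter lost without library A of the p65 line with guides (-0.14) or library C without guides (-0.12). PPARA went the other way, at 0.32 with VP64 (SE 0.13, adjusted p = 0.0595, not called) and 0.35 with p65 (SE 0.13, adjusted p = 0.0369). PPARG was called in neither arm. The corepressor NCOR1 fell with guides, with changes of -0.21 and -0.23 (adjusted p = 0.00355 and 0.00183), calls that were lost on log2(TPM + 0.1) in limma (adjusted p = 0.337 and 0.196). NR1H2 rose with guides in the p65 arm by 0.22 (SE 0.05, adjusted p = 0.00252), and its VP64 value was 0.09 (SE 0.05, adjusted p = 0.174). Of all 15 receptors and cofactors, 3 rose and 3 fell with guides in the VP64 arm, against 19.3% and 21.3% of all genes, and 5 rose and 5 fell in the p65 arm, against 18.7% and 20.2%. The median log2 changes were 0.04 and -0.02. These counts changed between fits. Without library A of the VP64 line with guides 6 rose and 2 fell. In limma on log2(TPM + 0.1) 1 rose and 1 fell with VP64, and 2 rose and 2 fell with p65. That limma fit called fewer of all genes too. With VP64, 2061 of all genes rose and 2044 fell in it, against 2889 and 3185 in the main fit. With p65, 1764 rose and 1994 fell, against 2805 and 3018. In the p65 arm, 3 rose without library B with guides (3 fell), C with guides (4 fell) or A without guides (5 fell). The number that fell was 3 without A with guides or B without guides, and 2 without C without guides.

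Most of the other genes known as LXR targets were also higher with guides. Of 10 listed, 7 were tested. Of these, 5 rose with VP64 and 6 with p65 guides and none fell, against the same all-gene shares, with median log2 changes of 0.56 and 0.33 against medians of -0.0004 and -0.0095 over all genes. SCD, which desaturates fatty acids, averaged 127 TPM without an activation domain, 25.3 and 24.2 TPM in the VP64 and p65 lines without guides, and 107 and 72.8 TPM with guides. Its rise with guides was 2.06 (SE 0.08, adjusted p = 1.42e-14) and 1.60 (SE 0.08, adjusted p = 3.36e-13) on the log2 scale. SREBF1, the transcription factor of fatty acid synthesis, averaged 97.2 TPM without an activation domain, 42.6 and 38.0 without guides, and 119 and 84.8 with guides. Its log2 rises with guides were 1.46 (SE 0.09, adjusted p = 2.56e-11) and 1.05 (SE 0.09, adjusted p = 3.63e-09). Both genes are also known to respond to SREBP activity, so that they do not report on LXR alone. The phospholipid-remodelling enzyme LPCAT3 rose by 0.38 (SE 0.06, adjusted p = 5.85e-05) and 0.30 (SE 0.06, adjusted p = 0.000617). Without guides, 5 of the 7 were lower with VP64 than without an activation domain, against 24.0% of all genes, with a median of -1.04. With p65, also without guides, 4 were lower, against 24.9% of all genes, with a median of -1.10. Of the listed genes linked to LXR, APOE and LPL were called lower and PLTP higher in both of those comparisons. ABCA1, ABCG1 and MYLIP were called in neither. However, ABCG1 was called lower with VP64 once library B of the VP64 line without guides was left out. ABCA1 was called higher with VP64 in the alternative fits given above.

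SCD rose less with guides in the p65 arm than with VP64, by a difference of -0.46 (SE 0.10, adjusted p = 0.032) on the log2 scale. The call did not hold in limma on log2(TPM + 0.1), at adjusted p = 0.217. It was also lost in 6 of the fits that left out 1 library (library B of the VP64 line with guides, A, B or C of the VP64 line without guides, and B or C of the p65 line without guides).

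**Figure D4:**
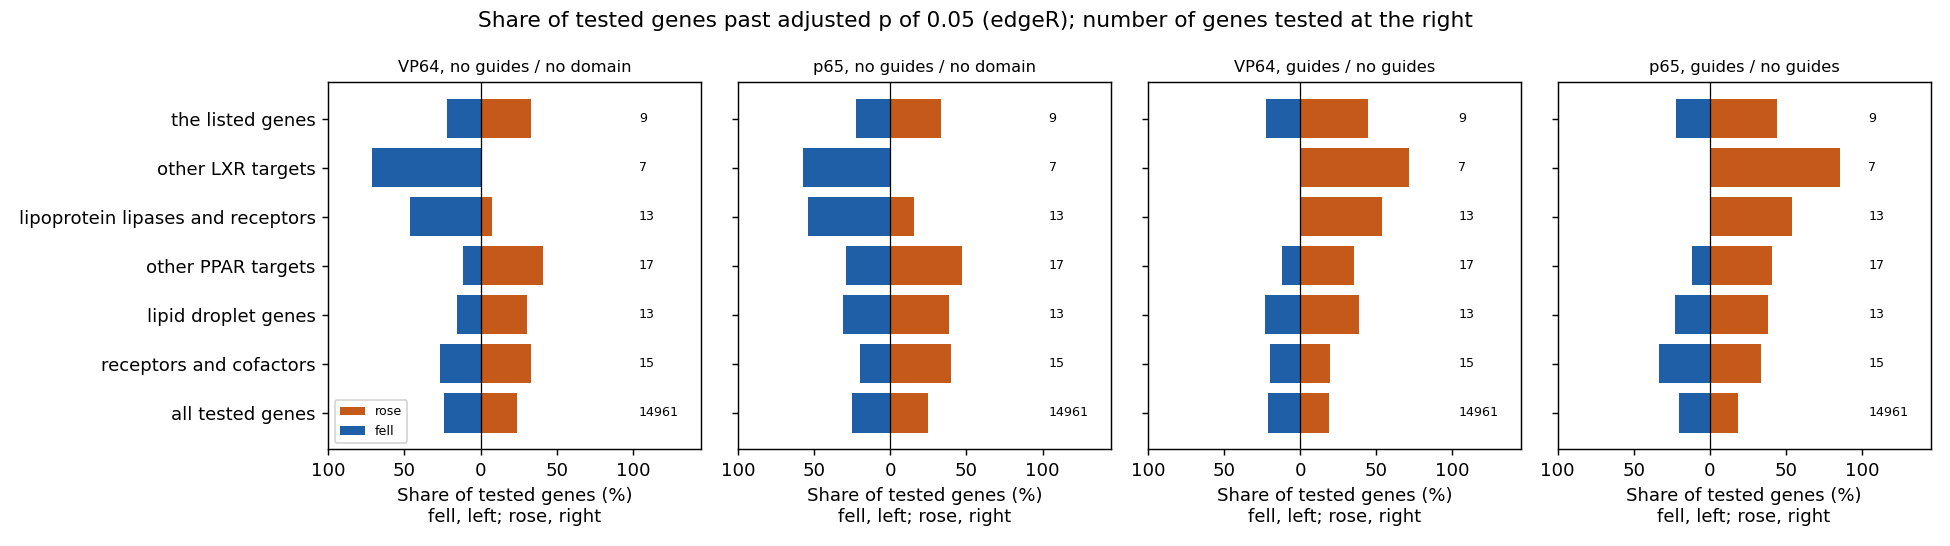
Share of tested genes (%) that passed an adjusted p of 0.05 upward (right) and downward (left) in each gene list and over all 14961 tested genes, in 4 comparisons, with the number tested at the right. The other LXR targets are called downward only in both comparisons without guides and upward only in both guide comparisons.

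Of 13 tested genes for lipoprotein lipases, receptors and related factors, 7 rose and none fell with guides in each arm. Over all genes, 19.3% rose and 21.3% fell with VP64, and 18.7% and 20.2% with p65. In limma on log2(TPM + 0.1) the p65 count was 4, in a fit where 1764 of all genes rose against 2805 in the main fit. With VP64 1 gene fell when library C with guides was left out. The median log2 changes were 0.37 and 0.15. NPC1, which exports cholesterol from lysosomes, rose with guides by 0.71 (SE 0.04, adjusted p = 6.97e-12) and 1.12 (SE 0.04, adjusted p = 1.97e-15) on the log2 scale. The rise of NPC1 was larger in the p65 arm, by 0.41 (SE 0.05, adjusted p = 0.000218), a call lost in limma on log2(TPM + 0.1) (adjusted p = 0.175). LMF1, which LPL needs in order to fold, rose by 1.07 (SE 0.10, adjusted p = 2.73e-08) and 0.67 (SE 0.10, adjusted p = 1.23e-05), the latter lost in limma on log2(TPM + 0.1) (adjusted p = 0.0602). The lysosomal lipase LIPA rose by 0.62 (SE 0.06, adjusted p = 1.64e-08) and 0.54 (SE 0.06, adjusted p = 1.14e-07). Against no activation domain, 6 of the 13 were lower and 1 higher with VP64, against 24.0% and 23.6% of all genes. With p65, 7 were lower and 2 higher, against 24.9% and 24.7% of all genes. The higher gene in both was LRP1, a large scavenging receptor, named after its values were seen, with log2 changes of 1.62 (SE 0.09, adjusted p = 3.78e-12) and 1.80 (SE 0.09, adjusted p = 5.79e-13). With guides LRP1 was not called, at -0.21 (SE 0.09, adjusted p = 0.0563) and -0.09 (SE 0.08, adjusted p = 0.466).

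Of 17 tested other genes known as PPAR targets, largely enzymes of fatty acid oxidation, 6 rose and 2 fell with guides in the VP64 arm, against 19.3% and 21.3% of all genes, and 7 rose and 2 fell in the p65 arm, against 18.7% and 20.2%. The median log2 changes were 0.13 and 0.12. In limma on log2(TPM + 0.1) the counts were 4 up and 0 down with VP64 and 3 up and 0 down with p65. Over all 14961 genes that fit had 2061 up and 2044 down with VP64, and 1764 up and 1994 down with p65. In the p65 arm they ranged from 4 up and 0 down without library A with guides to 7 up and 0 down without library B without guides, and each single library left out lowered the number that fell to 0 or 1, except library C with guides. In the VP64 arm 5 rose and 1 fell without library C with guides or B without guides. HADHA, a subunit of the mitochondrial trifunctional protein, rose by 0.20 (SE 0.04, adjusted p = 0.000116) and 0.22 (SE 0.04, adjusted p = 6.17e-05). ACOT2, a mitochondrial thioesterase, rose by 0.24 (SE 0.07, adjusted p = 0.00656) and 0.34 (SE 0.07, adjusted p = 0.000313). The oxidation enzyme ACADVL also rose by 0.21 in the VP64 arm (SE 0.04, adjusted p = 8.04e-05) and by 0.12 in the p65 arm (SE 0.04, adjusted p = 0.0117). Both calls were lost in limma on log2(TPM + 0.1), with adjusted p = 0.103 and 0.584. The p65 call was also lost without library B of the p65 line with guides, at 0.10 (adjusted p = 0.0674), and with no low-count filter, at 0.12 (adjusted p = 0.0513). Without guides, 7 of the 17 were higher and 2 lower with VP64 than without an activation domain, against 23.6% and 24.0% of all genes. With p65, also without guides, 8 were higher and 5 lower, against 24.7% and 24.9% of all genes.

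Among 13 tested lipid droplet genes, 5 rose and 3 fell with guides in each arm, against 19.3% and 21.3% of all genes with VP64 and 18.7% and 20.2% with p65. In limma on log2(TPM + 0.1), 2 rose and 3 fell with VP64 and 3 rose and 2 fell with p65. Over all 14961 genes that fit had 2061 up and 2044 down with VP64, and 1764 up and 1994 down with p65. The triglyceride lipase PNPLA2 rose by 0.41 (SE 0.05, adjusted p = 1.02e-06) and 0.50 (SE 0.05, adjusted p = 5.79e-08) on the log2 scale, while its activator ABHD5 fell, with changes of -0.77 (SE 0.08, adjusted p = 1.2e-07) and -0.84 (SE 0.08, adjusted p = 3.19e-08). PLIN3, a droplet coat protein related to PLIN2, rose by 0.21 (SE 0.04, adjusted p = 0.000452) and 0.43 (SE 0.04, adjusted p = 8.03e-08). SOAT1, which esterifies cholesterol for storage, fell, with changes of -0.36 (SE 0.05, adjusted p = 6.63e-06) and -0.46 (SE 0.05, adjusted p = 3.1e-07). The median log2 changes of the list were 0.03 and -0.04.

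The genes whose pattern over the 5 line means lay closest to those of ABCG1 and ANGPTL4 were sought among 13060 genes that averaged 1 CPM or more, by the root mean square difference of centred log2 CPM. For ABCG1 these were PTGES, a prostaglandin synthase, at 0.53, SCARA5, a scavenger receptor, at 0.55 and PROX1, a homeobox factor, at 0.63. All 3 had their highest means in the lines with guides, such as 4.5 and 4.21 CPM for PTGES against 0.951 to 1.53 CPM elsewhere. For ANGPTL4 they were ABCC9, a subunit of a potassium channel, at 0.30, GALNTL6 at 0.40 and the zinc finger gene ZNF699 at 0.43. ZNF699 averaged 1.9 CPM without an activation domain, 5.94 and 6.26 without guides and 2.18 and 3.08 with guides. ABCC9 and GALNTL6 were below 2.5 CPM in all line means, where counting error is wide. These likenesses rest on 5 means from lines that share their libraries and are a description only.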

How the data were processed

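Expected counts were deposited per gene and library as RSEM estimates after STAR alignment to hg38, per the submitters' processing notes and the file headers. The deposited TPM values stand beside them and are RSEM's length-scaled abundances, per the file headers. The deposited effective length (another unit, in bases) is RSEM's mean per gene, per the file headers, and was used for 1 alternative only. The sources used here give no versions and no strandedness. Of 58813 entries, 92 spike-ins were left out and 58721 matched release 29 of GENCODE.

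Expected counts were rounded and fitted in edgeR 4.0.16 (R 4.3.3) by quasi-likelihood over all 15 libraries with 1 coefficient per line, TMM scaling (factors 0.983 to 1.01) and filterByExpr at a minimum count of 10, leaving 14961 genes. There were 7 comparisons, with Benjamini-Hochberg adjustment over all genes and a threshold of 0.05. Library-scaled counts (CPM, per 1000000) use the TMM-scaled totals. Ratios given as fold are of mean CPM, and the overlap of libraries was read on CPM except where TPM values are listed. The procedure was checked on simulated counts with 200 genes changed, none of them among the least abundant. That check does not cover low counts such as those of ABCG1, or data in which as many genes change as here. Alternatives used DESeq2 1.42.0 and limma 3.58.1. The listed genes and the gene lists were chosen with earlier results of these data known. All listed genes are named, with up to 4 genes of each other list with the smallest p in a guide comparison and the 3 nearest patterns for genes that changed at least 2-fold with guides. A few genes that this rule names are not reported here. Others were named after their values were seen, as LRP1, PPARA and PPARG, and CTSA and RAB11B-AS1 for their overlap. VLDLR and PLIN5 are in 2 lists each. Library letters were not used as pairs: deviations of same-letter libraries from their line means had a correlation above 0.1 in 0 of 30 pairs. No 2 libraries held identical values.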

Additional observations from a re-analysis of the deposited data

How the results depend on the processing

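Alternatives for the listed genes were DESeq2 size factors, no filter on low counts, genes averaging 1 CPM or more, DESeq2, only the libraries compared, a replicate block, effective-length offsets, limma on TPM, and each library left out. Of 590 gene values under them, 556 kept direction and side of the threshold, 17 passed it newly, 3 no longer passed it (PLTP, VP64 without guides against no activation domain) and 14 changed sign, none of them a called value. LPL in the VP64 guide comparison, -0.01 on the log2 scale, was 0.011 with the 1 CPM filter, 0.0066 with DESeq2, 0.015 with the replicate block, 0.15 with the length offset, and 0.17, 0.13 and 0.17 in limma on log2(TPM + 0.1), log2(TPM + 1) and log2(TPM + 0.1) at a mean of at least 1 TPM. With single libraries left out, LPL ranged from -0.39 to 0.32 (VP64) and -0.062 to 0.48 (p65), PLIN2 from -0.18 to 0.0001 (VP64), and APOE from -0.018 to 0.23 (p65). The cause was not tested. The number of listed genes called with guides was 5 to 7 in either arm. The 5 arose where the filter at a mean of at least 1 TPM left ABCG1 untested, not from a lost call. Against no activation domain, with libraries left out, the number was 4 to 6 in the VP64 line and 5 in the p65 line without guides. Between p65 and VP64 without guides it was 2, not 1, with no filter and with only the libraries compared, and 1 to 2 with libraries left out. With guides it was 2, not 1, with no filter and with DESeq2, and 1 to 2 with libraries left out. For the difference of guide effects it was 1, not 0, with no filter, and 0 to 1 with libraries left out. The replicate block left every count of listed genes as it was: 6 and 6 with guides, 5 and 5 against no activation domain, 1 and 1 between domains and 0 for the difference. Over all genes, calls for that difference were 143, with 360 without a filter, 242 by DESeq2, 31 with the length offset and 28 in limma on log2(TPM + 0.1). Calls between p65 and VP64 were 315 without guides and 1185 with guides, against 98 and 429 in that limma fit. For the p65 guides they were 5823 against 3758. For the other gene lists the same alternatives were added after seeing the data: 1115 of 1202 values of named genes kept their side, 87 did not and none changed sign. With guides, VP64 then p65, the number rising ranged from 5 to 6 in both arms for other LXR targets (none fell), 7 to 8 and 4 to 8 for lipoprotein genes (0 to 1 and 0 fell), 4 to 7 and 3 to 7 for PPAR targets (0 to 3 and 0 to 2 fell), 2 to 5 and 3 to 5 for droplet genes (3 and 2 to 3 fell), and 1 to 6 and 2 to 5 for receptors and cofactors (1 to 3 and 2 to 5 fell). For SCD, the difference of guide effects ranged over fits from -0.52 to -0.34. Low counts limit ABCG1, at 2 to 71 per library, and exclude PDK4 from testing.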
